A study of Saccharomyces cerevisiae with 60 samples.

Results

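The gene expression of M13, 1 of 9 strains of Saccharomyces cerevisiae, is described here during exponential growth in rich medium, against the mean of the other 8 strains in the same medium. The comparison used the 3 arrays labelled as M13 in rich medium and the 24 rich medium arrays of M5, M8, M14, M22, M32, M34, S288C and YPS163 (3 per strain), out of 60 arrays in the series. The same strains were also grown in medium with copper sulfate, and 3 arrays of M13 in that medium served as a second set. On each array the RNA of 1 strain was hybridized in a 2-colour design against a pool that combined the RNA of all 9 strains in that medium, so the pool held RNA of M13 itself. The labels give no genotype, ploidy or mating type for any strain, no copper concentration and no composition of the medium. As background that the labels do not give, S288C is the common laboratory strain, YPS163 comes from oak woodland and the M strains are known as vineyard isolates. The strain was in channel 2 on replicate 1 of M13 and in channel 1 on replicates 2 and 3. Nothing in the labels says that replicates came from separate cultures. The p-values therefore rest on the spread between the arrays alone, and that spread may be technical. Cultures were measured in bulk, so fewer cells with a transcript and less RNA per cell cannot be told apart.

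Natural yeast strains differ in transposon content, in mitochondrial genomes and in the control of nutrient transporters, and all of these can be read in RNA. Ty1 and Ty2 are retrotransposons that move through an RNA copy. Each has a Gag frame, which encodes the particle coat, and a longer Gag-Pol frame, which adds the enzymes of reverse transcription and integration and is made by a frameshift from the same RNA. The mitochondrial genome encodes a few subunits of the respiratory chain and of the ATP synthase, and the nucleus encodes the rest. PHO84 encodes the high-affinity phosphate transporter of the plasma membrane.

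All levels below are log2 ratios of strain over pool with the array median at 0, and a difference is M13 minus the mean of the 8 other strains on that scale. In rich medium 19 of 5524 genes differed in M13, which is 0.344% of the genes tested (limma, Benjamini-Hochberg adjusted p under 0.05). There were 15 higher (0.272%) and 4 lower (0.0724%). Of the 15 that were higher, 10 were Ty reading frames. The other 5 were ARG1 of arginine synthesis, the membrane protein genes MRH1 and YRO2, the drug transporter gene PDR15 and the mitochondrial OLI1. The 4 that were lower were the mitochondrial ATP6 and ATP8, PHO84, and YLR179C, which encodes a relative of the carboxypeptidase inhibitor Tfs1. At an unadjusted p under 0.05 there were 120 genes, where 276.2 would be expected by chance. The count rested on all 3 M13 arrays: it was 7 without replicate 1, 3 without replicate 2 and 11 without replicate 3.

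The M13 arrays did not resemble each other closely as deposited. Over all genes their pairs correlated at -0.24, -0.11 and 0.35, and the running median of neighbouring spots held 23.0%, 53.0% and 45.9% of their variance. With that running median subtracted the 3 pairs correlated at 0.11, 0.30 and 0.41. The fit then called 43 genes, or 0.778% of the genes tested, with 35 higher (0.634%) and 8 lower (0.145%), and all 19 genes above were among them. This value is called the position-corrected one below. It was 23 without replicate 1, 22 without replicate 2 and 36 without replicate 3. How much of a difference between M13 and the other strains comes from the place of spots on the slide was not tested beyond this correction.

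The direction of the ratios is inferred, not stated in the labels. The linear ratios of all strains to their pool must average 1. On the 200 most variable rows in rich medium, the mean ratio lay 0.12 from that value (median absolute log2) when read as channel 1 over channel 2. It lay 0.39 away when read the other way, and in copper medium the values were 0.11 and 0.38. Of 39 pairs of an M13 array and an array of another strain in the same channel order, 10 correlated under -0.3, the lowest at -0.51, and 0 did so after position correction. Turning the direction would change the sign of both arrays in such a pair, so these correlations cannot test the direction. It rests on the mean ratios alone and remains an inference. With the sign turned, 4 genes would be higher and 15 lower in M13, and every difference below would change sign.

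In the plot of all rich medium arrays for the 19 genes, M13 stood clear of the 24 other arrays for 5 genes and overlapped with them for 14. The 5 were the Ty2 frames YGR161W-A, YDR034C-C and YOR192C-A with ARG1 and PDR15. A sixth gene without overlap among all genes tested was DDR48, which did not pass the test, so that such separation was seen for 6 genes, or 0.109% of those tested, all with M13 on the high side. Among the 9 strains M13 had the highest mean for 7 of the 19 genes, the second highest for 8 and the lowest for 3.

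**Figure D1:**
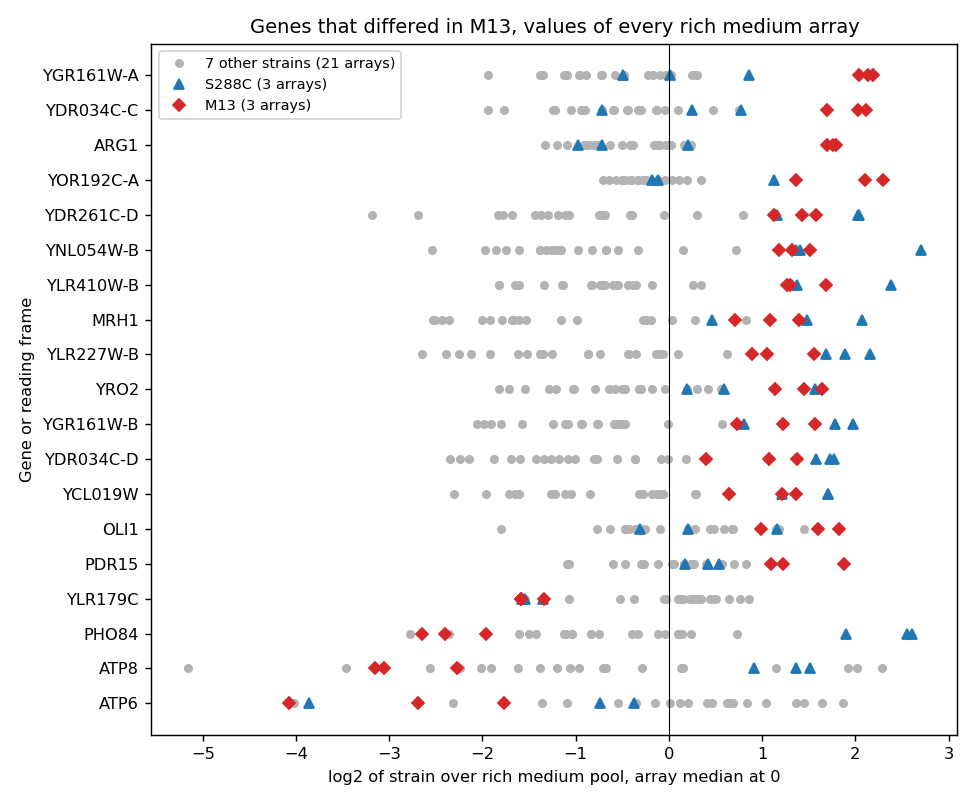
Levels of the 19 genes that differed in M13 on every rich medium array, as log2 of strain over pool with the array median at 0 (horizontal axis), with 1 row per gene. Red diamonds are the 3 M13 arrays, blue triangles the 3 S288C arrays and grey circles the 21 arrays of the other strains. The red points lie clear of all others for YGR161W-A, YDR034C-C, ARG1, YOR192C-A and PDR15, while S288C lies beside or above M13 for most other Ty frames and beside it for YLR179C.

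The Ty frames made up most of what was higher in M13. YGR161W-A, a Ty2 Gag frame, had levels of 2.19, 2.13 and 2.04 on the 3 M13 arrays, and the 24 other arrays ran from -1.94 to 0.86 with a median of -0.49. All 3 M13 arrays were above every other array. The difference was 2.61 ± 0.33 (SE; adjusted p = 3.84e-06), and M13 was higher than each of the 8 other strains in a test of that pair. YDR034C-C, another Ty2 Gag frame, had 2.11, 2.03 and 1.70 in M13 and ran from -1.94 to 0.77 with a median of -0.52 elsewhere. It also showed no overlap, with a difference of 2.46 ± 0.39 (adjusted p = 0.000308). The third Ty2 Gag frame that passed, YOR192C-A, had 2.29, 2.11 and 1.36 in M13 against arrays from -0.71 to 1.12 with a median of -0.25. Its difference was 2.12 ± 0.29 (adjusted p = 1.22e-05), and M13 was again higher than each other strain taken alone.

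YGR161W-A and YOR192C-A were the only genes of the 19 that passed under every one of 47 settings tried. The copies of each Ty family are nearly identical, so a spot named for 1 copy can report others, and the values of single frames are uncertain as values of single genes.

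Frames were therefore also read by family, which was chosen after values were seen. The families were told apart by the length of their Gag frames in the R64 gene table, where Ty2 has the shorter one, and the Gag-Pol frame that shares the start was put with them, which gave 64 measured frames. The 8 Ty2 Gag frames had a median difference of 1.71, beside 0.020 for all genes, and all 8 were above 0. Of these 3 passed (7 position-corrected), and M13 had the highest mean of the 9 strains in 7. The median level of these frames was 1.32 in M13, 0.15 in M32 and 0.11 in S288C, and it was below 0 in the other 6 strains, the lowest being -0.66 in YPS163. Across the M13 arrays the median was 1.39, 1.85 and 0.59.

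The 8 Ty2 Gag-Pol frames had a median difference of 1.61, with all 8 above 0 and 4 past the test (6 position-corrected). The 4 were YLR410W-B (1.90 ± 0.38, adjusted p = 0.00554), YGR161W-B (1.79 ± 0.32, adjusted p = 0.00121), YDR034C-D (1.63 ± 0.39, adjusted p = 0.0468) and YCL019W (1.58 ± 0.37, adjusted p = 0.0318). The YGR161W-B call was lost without M13 replicate 2 (differences from 1.60 to 2.09 over the arrays left out), and the other 3 without any 1 of the M13 arrays, where their differences stayed between 1.20 and 2.15. The YGR161W-B call was also lost without replicate 1 of every strain. With arrays scaled to an equal spread the YLR410W-B and YCL019W calls were lost, and YCL019W also without M14, M5 or M8 in the mean. YDR034C-D passed in 20 of the 47 settings, the fewest of the 19 genes. Its call was also lost without each of 14 single arrays of other strains, without centring, with arrays scaled to an equal spread and with only the rich medium arrays. Here M13 did not stand alone. S288C had the highest level in all 8 frames, with a median of 1.53 beside 1.01 in M13, and the remaining medians ran from -1.48 in M8 to -0.22 in M32. In the direct test of M13 against S288C, 0 of the 8 Gag-Pol frames passed, while 2 of the 8 Ty2 Gag frames were higher in M13. The median of M13 minus S288C was 1.40 for the Gag frames and -0.45 for the Gag-Pol frames. The difference between these values was not tested.

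The 24 Ty1 Gag frames had a median difference of -0.44, with 20 below 0, and 0 passed with or without position correction. Their median level was -0.50 in M13, 1.04 in S288C and 0.83 in M34, and 6 of the 24 were lower in M13 than in S288C in the test of that pair.

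The 24 Ty1 Gag-Pol frames fell into separate sets. In M13, 7 had differences from 1.40 to 2.09, and the other 17 had differences from -1.09 to -0.30, with none between. The 3 that passed were YDR261C-D (2.09 ± 0.38, adjusted p = 0.00149), YNL054W-B (2.07 ± 0.42, adjusted p = 0.00554) and YLR227W-B (1.83 ± 0.42, adjusted p = 0.0318), all among the 7. For YDR261C-D the M13 arrays had 1.43, 1.58 and 1.13, and the 24 others ran from -3.19 to 2.04 with a median of -0.74, so the groups overlapped. The YDR261C-D call was lost without M13 replicate 2 (differences from 1.72 to 2.33), and those of YNL054W-B (from 1.90 to 2.19) and YLR227W-B (from 1.55 to 2.13) without any 1 of the M13 arrays. All 3 calls were also lost without replicate 1 of every strain, and that of YLR227W-B without replicate 2 or 3. YLR227W-B also lost its call with arrays scaled to an equal spread and with only the rich medium arrays. The same held without M14, M8 or YPS163 in the mean, and it passed in 36 of the 47 settings. Position-corrected, YGR038C-B, YDR098C-B and YJR027W passed as well. The 7 frames had a median level of 1.08 in M13 and 1.75 in S288C, and the other 17 had -1.12 in M13 and 1.07 in S288C. In M34 the order was turned, with a median of -0.83 for the 7 and 1.03 for the 17. M32 had -0.24 and 0.56, and the other 5 strains had medians between -1.64 and -0.99 in both sets. The split was made on the M13 values, so these levels are a description. Beside them, the Ty2 Gag-Pol frames had medians of 1.01 in M13, 1.53 in S288C, -0.22 in M32 and -0.37 in M34. The Ty1 Gag frames paired with the 3 that passed were not higher in M13. Their differences were -0.69 for YDR261C-C, -0.30 for YNL054W-A and -0.53 for YLR227W-A. Whether the spots of the 7 frames read RNA of Ty2 copies was not tested.

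**Figure D2:**
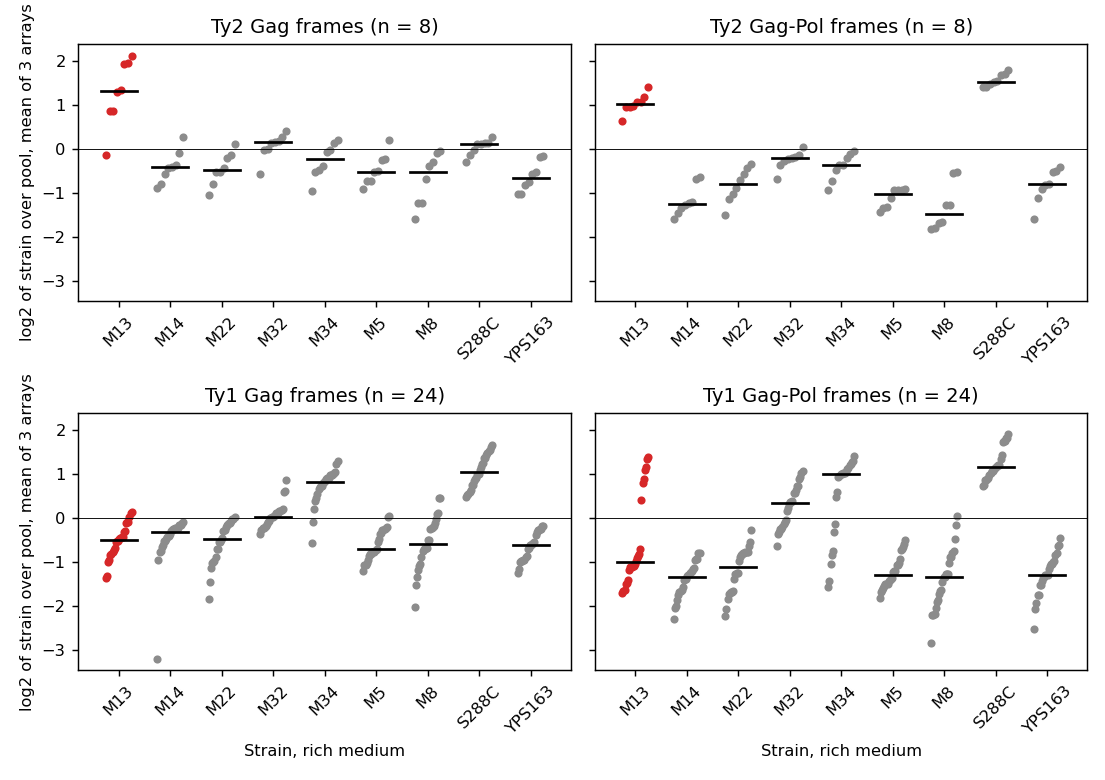
Mean level over 3 rich medium arrays of each measured Ty frame (points), as log2 of strain over pool (vertical axis), for the 9 strains (horizontal axis), in 4 panels by family and frame; black bars are medians over frames and M13 is red. M13 has the highest median for Ty2 Gag (1.32), is second to S288C for Ty2 Gag-Pol (1.01 beside 1.53), and shows 7 Ty1 Gag-Pol frames well above the other 17.

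Among the 9 other genes, ARG1 had the largest difference on the high side. ARG1 encodes argininosuccinate synthetase, which makes the precursor of arginine from citrulline and aspartate. Its levels were 1.69, 1.76 and 1.79 on the 3 M13 arrays, while the other strains' arrays ran from -1.33 to 0.23 with a median of -0.46. The M13 arrays were nearly equal and all above the rest. The difference was 2.22 ± 0.42 (SE; adjusted p = 0.00198), and position-corrected it was 2.19 ± 0.36 (adjusted p = 0.000337). The means of the 8 other strains lay close together, from -0.77 in YPS163 to -0.13 in M8. The call was lost without replicate 1 or replicate 2 of M13, with differences between 2.05 and 2.34 over all arrays left out. No other measured gene of arginine synthesis among ARG2, ARG3, ARG4, ARG7, ARG8, CPA1 and ORT1 passed, and their 7 differences ran from -0.13 to 0.44. YOR302W, the short frame in the leader of CPA1 that represses CPA1 when arginine is plentiful, passed position-corrected (1.01 ± 0.22, adjusted p = 0.0106). It did not pass in the centred values, and passed in 2 of the 47 settings. In the amino acid synthesis list as a whole, ARG1 was the 1 gene of 46 measured that passed, and the median was 0.055. GCV1, of the glycine cleavage complex, had 0.46 and did not pass.

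MRH1 and YRO2 are paralogs that encode plasma membrane proteins related to Hsp30. MRH1 had 1.39, 1.08 and 0.71 in M13, and the other arrays ran from -2.54 to 2.07 with a median of -1.08, so that the groups overlapped. Its difference was 1.84 ± 0.34 (adjusted p = 0.00149). The high mean of S288C (1.34) was above that of M13 (1.06), and M13 was higher than M14, M22, M5 and M8 in the tests of single pairs. YRO2 had 1.65, 1.14 and 1.45 in M13, while the others ran from -1.82 to 1.56 with a median of -0.40, with a difference of 1.82 ± 0.40 (adjusted p = 0.0172). The MRH1 call was lost without M13 replicate 1 or 2 (differences from 1.71 to 2.06), and the YRO2 call without any 1 of the 3 (from 1.60 to 2.00). For YRO2, M13 had the highest mean and S288C the next (0.78), and single pairs passed against M14, M5 and YPS163. These were the 2 of 19 measured genes of ion, water and glycerol transport that passed, in a list with a median of 0.083.

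PDR15 encodes a plasma membrane ABC transporter of the multidrug resistance family. Its levels were 1.88, 1.09 and 1.22 in M13, and the other arrays ran from -1.09 to 0.83 with a median of 0.17, with no overlap. The difference was 1.34 ± 0.31 (adjusted p = 0.0334), and the call was lost when any 1 M13 array was left out, with differences from 1.12 to 1.47. It was also lost without centring and without M14 in the mean. PDR15 alone passed among 22 measured multidrug genes, whose median was -0.016, and AQR1, a transporter of the major facilitator family, had -0.49.

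Of the genes that were lower, PHO84 had levels of -1.97, -2.65 and -2.40 in M13, and the other arrays ran from -2.77 to 2.61 with a median of -0.57. M13 and M34 had the lowest means (-2.34 and -2.21), and S288C the highest (2.35). The difference from the mean of 8 strains was -1.95 ± 0.37 (adjusted p = 0.00272). In pairs, M13 was lower than S288C by far (-4.69, adjusted p = 2.58e-08) and lower than M22 (-2.37, adjusted p = 0.0119), M14 and YPS163. The call was lost against the mean of the 6 other M strains alone. It was also lost when arrays were scaled to equal spread, and without replicate 1 or 2 of M13 (differences from -2.05 to -1.84 over the arrays left out). The other 24 measured genes of the phosphate regulon had 0 calls, with differences from -0.58 for VTC4 to 0.94 for PHO3, an acid phosphatase gene. SPL2, a regulator of phosphate transport that is induced when phosphate is short, had -0.38. The median of the list was -0.091.

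YLR179C had -1.34, -1.58 and -1.59 in M13, and the others ran from -1.58 to 0.85 with a median of 0.15. The difference was -1.40 ± 0.25 (adjusted p = 0.00121). M13 shared its low level with S288C, whose mean was -1.49 beside -1.50, and YPS163 followed at -0.66. The other 6 strains lay between 0.087 and 0.49, and each was higher than M13 in the test of its pair. The call was lost without M13 replicate 2, and also without replicate 1 or replicate 3 of every strain. Differences ran from -1.47 to -1.31 over the arrays left out.

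The mitochondrial genome held the largest drop of the comparison. ATP8 and ATP6, neighbours that are transcribed together with COX1, encode subunits of the membrane part of the ATP synthase. COX1 itself had a difference of -0.17 in rich medium and did not pass. ATP6 had levels of -1.77, -4.08 and -2.70 in M13 against arrays from -4.03 to 1.87 with a median of 0.16, so the arrays of other strains reached nearly as far down as those of M13. The difference was -2.65 ± 0.46 (adjusted p = 0.00101), and in single pairs M13 was lower than M14, M22, M5, M8 and YPS163. ATP8 had -2.27, -3.15 and -3.06 in M13, and the others ran from -5.16 to 2.28 with a median of -0.69. Its difference was -2.20 ± 0.48 (adjusted p = 0.0172), and the mean of M34 (-2.83) was as low as that of M13 (-2.83). S288C was low for ATP6 (-1.66) and high for ATP8 (1.26). The ATP6 call was lost without M13 replicate 2 and without replicate 1 of every strain. The ATP8 call was lost without any 1 of the 3 M13 arrays or without S288C or YPS163 in the mean. It was also lost against the mean of the 6 other M strains alone and with only the rich medium arrays. Over all 47 settings the ATP8 difference ran from -2.59 to -1.48. The differences ran from -2.95 to -2.25 for ATP6 and from -2.34 to -2.00 for ATP8 over the arrays left out.

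OLI1, which encodes the ring subunit of the same enzyme and is transcribed apart from ATP8 and ATP6, was higher. Its levels were 1.60, 1.82 and 0.99 in M13, and the others ran from -1.81 to 1.44 with a median of 0.052. The difference of 1.39 ± 0.34 was close to the threshold (adjusted p = 0.0468) and passed in 25 of the 47 settings, in none without an M13 array, with differences from 1.14 to 1.56 over all arrays left out. Of 19 measured mitochondrial frames, 1 was higher and 2 were lower, with a median of -0.17. Position-corrected, 2 more were higher, both frames inside introns. AI5_BETA lies in an intron of COX1 (1.53 ± 0.33, adjusted p = 0.00722), and SCEI encodes the homing endonuclease in the intron of the large ribosomal RNA (1.47 ± 0.37, adjusted p = 0.0445). The 14 frames that passed in neither had differences from -1.13 for COB, the cytochrome b gene, to 0.79 for AI4.

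**Figure D3:**
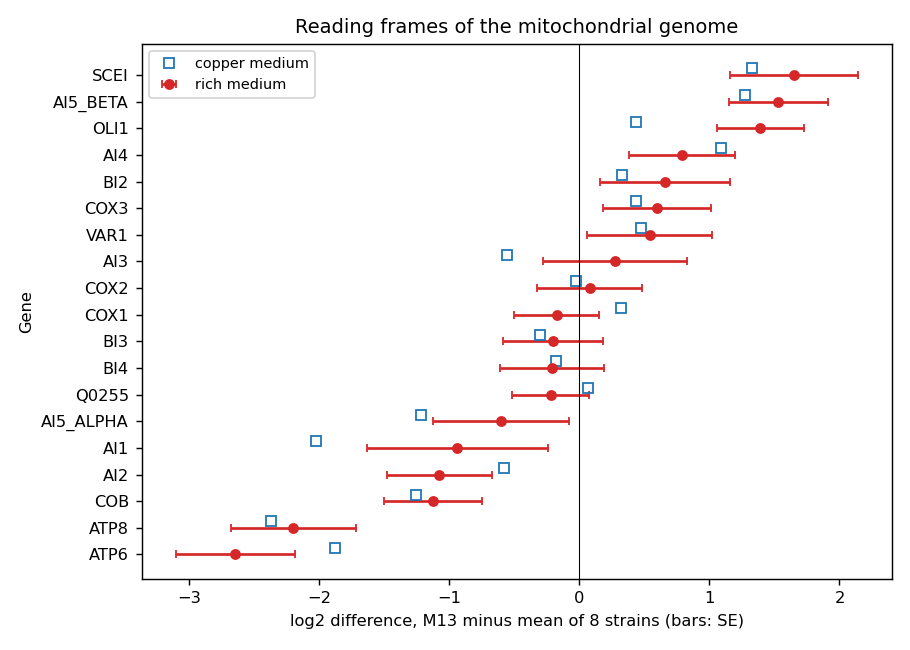
Difference of M13 from the mean of the 8 other strains (log2, horizontal axis) for the 19 measured mitochondrial reading frames. Red circles with bars are rich medium values ± SE and blue open squares are copper medium values without bars. ATP6 and ATP8 lie lowest (-2.65 and -2.20) and SCEI, AI5_BETA and OLI1 highest (1.65, 1.53 and 1.39).

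The nuclear genes for the respiratory chain and the ATP synthase were mostly above 0 without passing singly. Of 39 measured members 36 were above 0, and their median difference was 0.44 beside 0.020 for all genes, of which 3028 of 5524 were above 0. Taken for each M13 array alone, the list's median difference from the other strains was 0.94, 0.13 and 0.38, highest on replicate 1. The fitted median difference was 0.28 without that array. None passed in the centred values, and 4 were higher position-corrected, where the list's median was 0.41. The 4 were CYC1, the main cytochrome c gene (1.13 ± 0.24, adjusted p = 0.00615), CYT1 for cytochrome c1 (0.97 ± 0.24, adjusted p = 0.0299), COX5A for a cytochrome c oxidase subunit (0.93 ± 0.22, adjusted p = 0.0177) and RIP1 for the Rieske protein (0.82 ± 0.20, adjusted p = 0.0299). M13 had the highest mean of the 9 strains for each of them, and S288C had the lowest. In single pairs of the centred values, M13 was higher than S288C for each, and higher than M14 for RIP1. No other pair passed. M13 was close to YPS163 for RIP1 (0.072), COX5A (0.24) and CYT1 (0.28), and for CYC1 the difference was 0.68. CYC1 levels were 1.26, 0.11 and 0.72 in M13, and the others ran from -1.98 to 0.69 with a median of -0.29, so replicate 2 lay within the other strains. RIP1 levels were 1.57, 0.080 and 0.28, highest on replicate 1, and its centred difference of 0.87 became 0.49 without that array. GUT2, the mitochondrial glycerol-3-phosphate dehydrogenase gene, had 1.03 and did not pass (adjusted p = 0.787). Mitochondrial ribosomal protein genes had a median of 0.19, with 46 of 52 above 0 and 0 passing. The lowest was MRP20 at -0.59 and the highest MRPS17 at 0.69. Their levels differed widely among the M13 arrays, at 1.97, -0.91 and 0.50 for MRPS17.

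**Figure D4:**
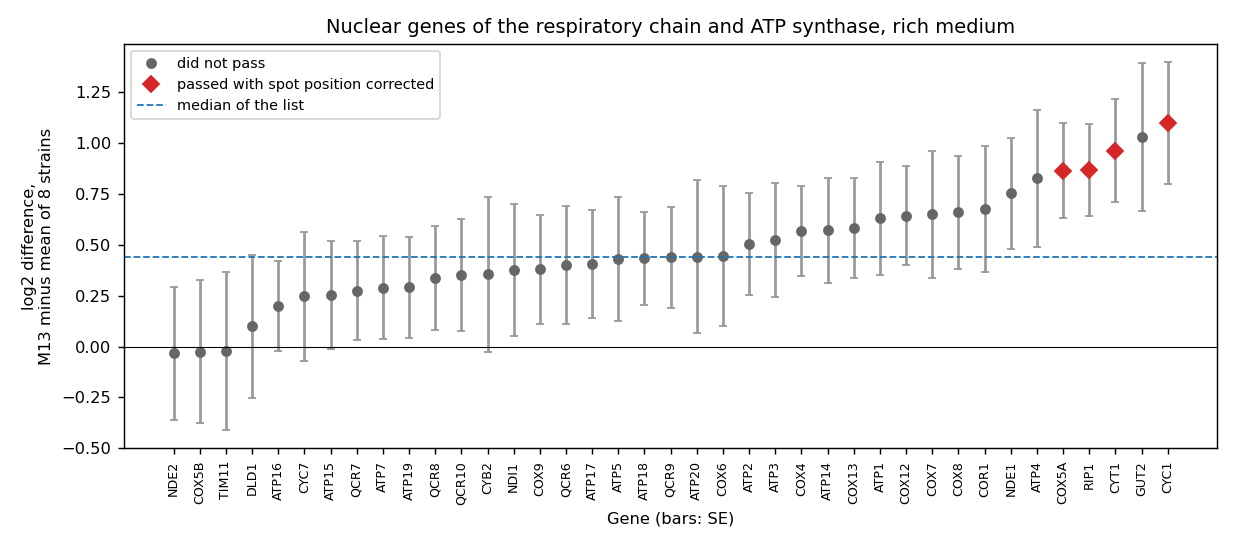
Difference of M13 from the mean of the 8 other strains in rich medium (log2 ± SE, vertical axis) for the 39 measured nuclear genes for the respiratory chain and the ATP synthase, in rising order. Of these, 36 lie above 0; the dashed line is the list's median (0.44), and red diamonds mark CYC1, CYT1, COX5A and RIP1, which passed position-corrected.

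Position correction added other single genes. Higher were BDH1 (0.81 ± 0.18, adjusted p = 0.0116), which encodes butanediol dehydrogenase, YAL065C (1.11 ± 0.20, adjusted p = 0.00103), a frame related to FLO1, and YLR297W (0.76 ± 0.16, adjusted p = 0.00474). The short frame YER138W-A (1.41 ± 0.35, adjusted p = 0.0372) was higher too. So were 9 Ty frames not named among the 10 above, which brought the Ty frames to 19 of the 43. Besides the 3 Ty1 Gag-Pol frames given above, they were the Gag frames YCL020W, YDR210W-A, YFL002W-B and YLR410W-A and the Gag-Pol frames YDR210W-B and YDR261W-B. Lower were TRS120 (-1.13 ± 0.29, adjusted p = 0.0466), of the TRAPP II complex of vesicle transport, and WTM1 (-1.05 ± 0.27, adjusted p = 0.0426), a transcriptional modulator. PTR2 (-0.95 ± 0.24, adjusted p = 0.0346), the peptide transporter gene, and EUG1 (-0.56 ± 0.14, adjusted p = 0.0465), which encodes an isomerase of disulfide bonds, were lower as well. The levels of TRS120 were -0.60, -3.08 and -0.21 in M13, so that replicate 2 was far below the rest. Its centred difference of -1.18 became -0.24 without that array. YAL065C also rested on replicate 2, with levels of 0.13, 2.27 and 0.51 and a centred difference of 1.19 that became 0.59 without it, and it passed in 2 of the 47 settings. Without replicate 2 the centred differences of EUG1 and PTR2 moved from -0.50 to -0.22 and from -0.96 to -0.59, and that of YFL002W-B from 1.10 to 0.63. BDH1 had 1.28, 0.14 and 0.31 in M13, and its centred difference of 0.89 became 0.51 without replicate 1. WTM1 had -0.999, -1.32 and -0.80, with all 3 arrays low. Other genes of this paragraph also passed in few of the 47 settings. The number was 1 for TRS120, WTM1, PTR2, EUG1, YLR297W and YLR410W-A, 3 for YDR210W-A and 4 for BDH1. It was 8 for YER138W-A, 9 for YCL020W, 12 for YFL002W-B and 14 for YDR210W-B and YDR261W-B.

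Several genes with large differences did not pass. YHB1, the flavohemoglobin that detoxifies nitric oxide, had 1.86, 0.16 and 0.97 in M13, and the others ran from -4.86 to 1.08 with a median of -0.068. The difference was 1.96 ± 0.71 (adjusted p = 0.916), and the lowest means were those of M32 (-3.16) and YPS163 (-3.12), each lower than M13 in a single pair. DDR48, a stress-induced gene, had 2.43, 1.13 and 1.32 in M13 and ran from -1.23 to 0.67 with a median of -0.27 elsewhere, with a difference of 1.93 ± 0.54 (adjusted p = 0.125). YGR201C had -4.96, -5.47 and -5.62 in M13, and the others ran from -6.20 to 2.67 with a median of -4.36. Its difference of -2.17 ± 0.62 (adjusted p = 0.163) went with a mean of 2.64 in M32 and -0.77 in M5, the strains M13 was lower than in single pairs, while the other 6 means lay between -5.34 and -3.72.

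Of the 32 gene lists, 27 had 0 calls in the centred values, and 26 had none position-corrected either. Over all genes the share called was 0.344%, and 0.778% position-corrected. At such shares a list of this size would mostly hold no call, so its absence says little about the members. For metals, the copper list had a median of 0.15 over 14 genes. CTR2, a vacuolar copper transporter gene, had -0.55, SOD1 had 0.41 and the metallothionein gene CUP1-1 had 0.23. The iron uptake list had -0.032 over 27, and its oxidase and permease genes FET3 (-1.09, adjusted p = 0.363) and FTR1 (-0.72) were lowest in M13 of the 9 strains without passing. The zinc list had -0.085 over 14, where the transporter gene ZRT1 had -0.64 and ZPS1 -0.25. In sulfur metabolism, the methionine list had -0.12 over 30, with -0.77 for the methionine synthase gene MET6 and -0.63 for MET17. The list of sulfite and nitric oxide genes had 0.16 over 6, where the sulfite pump gene SSU1 had 0.38 and YNR064C 0.44.

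Stress lists also stayed without calls. Chaperone genes had a median of 0.077 over 29, with 0.48 for the disaggregase HSP104 and 0.42 for SSA2. The general stress list, which holds DDR48, had 0.18 over 28, with 0.59 for HOR7. The oxidative stress list had 0.034 over 37, with 0.69 for the mitochondrial superoxide dismutase SOD2 and 0.57 for the cytochrome c peroxidase CCP1.

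Sugar and carbon lists lay near 0. Hexose transporters had a median of 0.16 over 19, led by HXT6 (1.09) and HXT1 (1.00), both highest in M13 of the 9 strains. The maltose, sucrose and galactose list had -0.067 over 19, with 0.35 for GAL10 and -0.22 for MAL31. Glycolysis and fermentation had -0.023 over 29, with 0.74 for the glycerol gene GPD1 and -0.59 for the aldehyde dehydrogenase ALD5. The TCA cycle list had 0.00046 over 30, with 0.76 for citrate synthase CIT1 and 0.61 for IDP1. Genes under HAP1 and heme had -0.012 over 18, with 0.59 for HAP4, the activating subunit of the regulator of respiration genes, and -0.87 for HEM2 of heme synthesis. HEM2 rested on replicate 2, as its arrays were 0.40, -3.09 and -0.15. Ergosterol synthesis had 0.016 over 26, with -0.49 for ERG1 and 0.33 for IDI1.

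Nitrogen catabolite genes had a median of -0.044 over 32, with -0.66 and -0.79 for the near-identical asparaginase genes ASP3-3 and ASP3-4. Vitamin and purine genes had 0.059 over 37, with 0.75 for the thiamine transporter THI7 and 0.69 for ADE1. Growth genes were close to 0 or slightly below. Cytosolic ribosomal proteins had -0.068 over 63, with -0.52 for RPS3 and 0.35 for RPL33A. Ribosome biogenesis had -0.14 over 66, of which 8 were above 0, with -0.43 for RRP1 and -0.36 for NSA1. The proteasome had 0.16 over 30, with 0.46 for RPN8 and 0.44 for RPN2. The list of histones and the cell cycle had 0.040 over 26, with -0.25 for RNR2 and 0.20 for POL30.

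Cell surface and cell type lists had no calls either. The cell wall list had a median of 0.14 over 31, with 1.05 for the mannoprotein TIR1 and 0.79 for the adhesin FLO11. Daughter cell separation had -0.039 over 11, with 0.49 for PIR1 and -0.43 for DSE4. The mating type and pheromone list had -0.033 over 28, with 0.44 for STE4, 0.43 for AGA1 and 0.29 for the switching endonuclease HO. That list mixes genes of a and alpha cells, so its median cannot show the cell type. Meiosis and sporulation had 0.017 over 25, with -0.39 for DIT1 and 0.34 for IME4. The subtelomeric list had -0.054 over 32, with 0.55 for COS6 and -0.44 for COS5.

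The 3 M13 arrays from copper medium, hybridized against a separate pool, gave a second reading of the strain. There 20 genes differed between M13 and the mean of the other 8 strains, or 0.362% of the genes tested, with 15 higher (0.272%) and 5 lower (0.0905%). Of these, 15 had also differed in rich medium with the same sign, which is 78.9% of the rich medium genes and 75% of the copper medium genes. All 19 rich medium genes had the same sign in copper. PHO84 was -2.65 ± 0.37 (SE; adjusted p = 4.73e-05), with M13 arrays of -3.82, -3.92 and -3.02, and the other strains ran from -3.29 to 2.95. MRH1 was 2.31 ± 0.34 (adjusted p = 5.63e-05), YLR179C -1.55 ± 0.25 (adjusted p = 0.000308) and PDR15 1.58 ± 0.31 (adjusted p = 0.00582). ATP6 and ATP8 were again lower, with differences of -1.88 and -2.37 (adjusted p = 0.0476 and 0.00596). Among Ty frames, YGR161W-A had 1.82, YDR034C-C 2.15 and YOR192C-A 1.69. Position-corrected, 45 genes differed in copper, and 30 of them were among the 43 of rich medium with the same sign, CYC1, CYT1, COX5A and RIP1 included.

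The 4 that passed in rich medium and not in the centred copper values were ARG1, OLI1, YRO2 and YNL054W-B. ARG1 had -1.01, 0.98 and 0.40 on the M13 copper arrays, a spread that the rich medium arrays did not show, and a difference of 0.67 ± 0.42 (adjusted p = 1.00). The other strains' copper arrays ran from -1.94 to 1.92. YRO2 had 1.25, OLI1 0.43 and YNL054W-B 1.71 in copper, where YNL054W-B just missed the threshold (adjusted p = 0.0501). Position-corrected, YRO2 and YNL054W-B passed in copper too. The rich minus copper difference of the M13 contrast was tested for every gene, and limma called 0 of 5524 (0.0%), with 17 at an unadjusted p under 0.05 and 0 called position-corrected. For ARG1 that difference was 1.55 ± 0.59 (unadjusted p = 0.0115, adjusted p = 1.00), so the change of ARG1 with the medium did not hold against the number of genes tested. MET6 passed in copper (-2.10 ± 0.42, adjusted p = 0.00595) and had -0.77 ± 0.42 in rich medium, where it did not pass. Its rich minus copper difference had an adjusted p of 1.00.

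**Figure D5:**
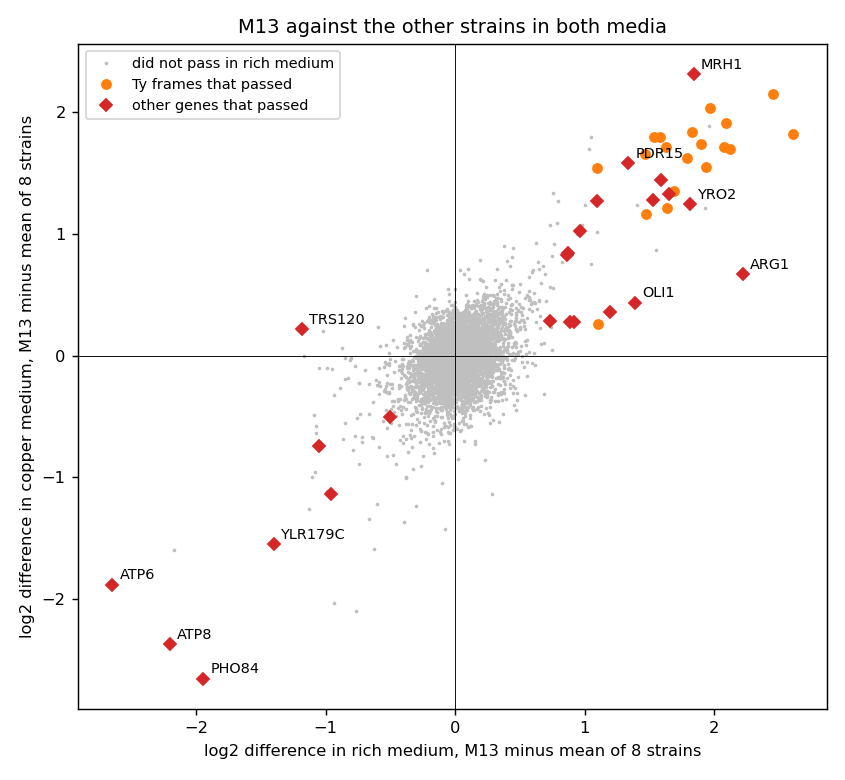
Difference of M13 from the mean of the 8 other strains in rich medium (horizontal axis) and in copper medium (vertical axis), both log2, for 5524 genes; orange circles are Ty frames and red diamonds other genes that passed position-corrected in rich medium. The genes that passed lie in the upper right or lower left for 42 of 43, the exception being TRS120, and ARG1 lies at 2.22 in rich medium and 0.67 in copper medium.

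Tested strain by strain in rich medium, M13 differed from S288C in 30 genes (0.543%), 9 higher and 21 lower, and from YPS163 in 24 (0.434%), 15 higher and 9 lower. It differed from M8 in 22 (0.398%), M14 in 21 (0.380%), M5 in 19 (0.344%), M22 in 14 (0.253%), M34 in 10 (0.181%) and M32 in 9 (0.163%). These comparisons share the M13 arrays, so their lists are not independent. Against S288C the lowest was PHO84 and the highest were ARG1 (2.25, adjusted p = 0.0430) and CYC1 (2.15, adjusted p = 0.00290), with Ty1 Gag frames among those lower in M13. Against M34 all 4 of the lowest were Ty1 Gag-Pol frames, YMR045C, YMR050C, YOR142W-B and YML039W, from -2.76 to -2.51. Against M32 the lowest was YGR201C (-8.00, adjusted p = 1.19e-08) and the highest YHB1 (4.16, adjusted p = 0.0430). MRH1 was highest against M14 (3.10, adjusted p = 9.82e-05), and ATP8 was lowest against YPS163 (-4.64, adjusted p = 2.33e-05). Against M8 the highest 4 were Ty frames or the short frame YER138W-A.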

How the data were processed

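Per the labels, total RNA was reverse transcribed, coupled to Cy3 or Cy5, and read on a scanner of type GenePix 4000A with the 4.0 release of its software. The deposited values were log2 ratios of the 2 channels, neither centred nor scaled: rich medium arrays had medians between -0.61 and 0.38, and the median absolute deviation (MAD) of an array lay between 0.198 and 0.831. The sources used here do not give normalization by the authors, the dye of each channel or the direction of the ratio. Of 6144 rows, 5541 had 1 gene and 603 none. By identifier, 5536 were matched to the R64 gene table, and 5 kept the platform name. Rows of 17 genes with several rows were averaged, which gave 5524 genes. There were 0 missing values.

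Arrays were centred on the median and turned to strain over pool. A model of 18 group means and 1 channel effect per gene was fitted to the 54 strain arrays in limma 3.58.1 (R 4.3.3), and p-values were adjusted by Benjamini-Hochberg over 5524 genes at 0.05. Position correction subtracted a running median of 15 by 15 spots within 16 blocks of 16 rows by 24 columns, a layout inferred from row numbers. In simulated data with 200 changed genes of 5524, the fit of M13 against 8 strains recovered 0% at a log2 change of 0.5, 50.5% at 1 and 99.5% at 2. Position-corrected, it recovered 17.5%, 90.5% and 100%. The simulated noise was normal and independent between genes and arrays, without the spot position patterns of the real arrays. These rates are therefore not the sensitivity in the real data. Python 3.11.15 with pandas 2.3.3 prepared the values. Precision is limited by the number of arrays.

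The strain, the 32 gene lists (974 members, 929 measured) and the tests were chosen with earlier results of these data known. Named were the 15 highest and 15 lowest genes that passed, the 8 highest and 8 lowest that passed only position-corrected, the 2 largest differences of each list, and PHO84, YHB1, MET6, SSU1, CUP1-1, MRH1, YGR201C and HO. All others, the Ty grouping included, were chosen after their values were seen. Alternatives concerned centring, scale, spot position, channel effect, moderation, arrays in the fit, replicate block, arrays left out and strains in the mean.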

Additional observations from a re-analysis of the deposited data

How the results depend on the processing

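Over 47 settings no called gene changed sign, and only YGR161W-A and YOR192C-A passed in all. The count of 19 genes rose to 43 with the running median subtracted and to 36 with arrays centred within 16 blocks, of which 18 were among the 19. It was 17 without centring, 19 with arrays scaled to an equal MAD (14 of them among the 19), 18 with no channel effect, 16 with only the 27 rich medium arrays and 24 against the 6 other M strains. Leaving out 1 strain from the mean gave 16 to 26. Over all arrays left out the count ran from 3 to 27; the 3 came without M13 replicate 2, or without replicate 1 of every strain, and leaving out 1 array of another strain gave 17 to 27. The position-corrected count ran from 22 to 36 over M13 arrays left out and was 32 with only the rich medium arrays. In copper the 20 genes became 45 with the running median subtracted. Against single strains it gave 25 for M22 (14 before), 18 for M32 (9), 28 for M34 (10), 58 for M5 (19) and 48 for S288C (30). The causes of these changes were not tested. Same-numbered arrays of M13 and other strains had deviations that correlated between -0.56 and 0.80, with 17 of 24 pairs over 0.1. The median correlations were 0.39, 0.56 and 0.21 for replicates 1, 2 and 3, so most same-numbered arrays shared part of their deviations. What they shared was not tested, and the main fit had no replicate block. Adding a replicate block gave 26 genes (51 position-corrected, and 0 for rich minus copper). Among genes that did not pass, 10 changed sign with arrays left out. With 1 array or replicate number left out, the differences ran for AQR1 from -0.99 to 0.044, for CUP1-1 from -0.072 to 0.63, for GAL10 from -0.18 to 0.78, for HEM2 from -1.38 to 0.11, for HO from -0.12 to 0.81, for IME4 from -0.010 to 0.60, for MRP20 from -1.20 to 0.16, for POL30 from -0.058 to 0.36, for RNR2 from -0.54 to 0.091 and for ZPS1 from -0.73 to 0.34.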
